A study of Homo sapiens with 36 samples.

Results

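THP6 is a T cell acute lymphoblastic leukaemia (T-ALL) line, and its control libraries were set against those of 3 other T-ALL lines, SUP-T1, CCRF-CEM and MOLT4. The series holds 36 libraries of polyadenylated RNA from 7 human T cell lines, each carrying a scrambled hairpin (control) or a hairpin against the transcription factor GATA3. Only control libraries were compared, 11 of the 36: 3 of THP6, 3 of SUP-T1, 3 of CCRF-CEM and 2 of MOLT4. The labels give all 11 libraries the cell type acute lymphoblastic leukaemia and the genotype WT, and name the scrambled hairpin in each, which the GATA3 level goes against in SUP-T1 (below). Each group is 1 established line. Every line was kept in RPMI with 10% fetal bovine serum. The labels do not say whether the libraries of a line came from separate cultures or transductions. The p-values therefore measure the spread between these libraries, and each line stands for itself alone.

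A gene was taken to separate THP6 when 3 conditions were met. Its difference from each of the 3 lines had to pass an adjusted p below 0.05 (edgeR's quasi-likelihood test, Benjamini-Hochberg over all 18291 genes tested), the log2 fold change had to be at least 1 in the same direction in all 3 comparisons, and every THP6 library had to lie outside the range of the other 8 libraries. Of the 18291 genes, 1660 met the rule, 752 of them higher in THP6 (4.11%) and 908 lower (4.96%). Levels are given in CPM, a gene's count relative to the TMM-scaled total count of its library, which are not corrected for gene length, so they are compared between libraries and never between genes. Because of the last condition, the THP6 libraries and the other 8 do not overlap at any gene said below to separate THP6.

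T-ALL arises from cells that were on their way to becoming T cells in the thymus. Such cells cut and join their antigen receptor genes with the RAG recombinase, pass through stages marked by CD1, CD4 and CD8 surface proteins, and depend on Notch signals and on transcription factors such as TCF7 and GATA3. Leukaemic lines keep parts of the stage at which they arose, often with 1 transcription factor switched on out of place, such as TAL1, TLX1 or NKX2-5.

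The hairpin target was measured first. GATA3 was at 148, 129 and 138 CPM in the 3 THP6 controls and at 66.1 CPM on average in the 2 THP6 knockdown libraries, the direction that the labels give. In SUP-T1 it went the other way, at 25.6, 24.8 and 25.3 CPM in the libraries labelled control and 85.3 CPM on average in those labelled knockdown, so those SUP-T1 libraries are named here by their label only. By the rule itself, all 752 higher and all 908 lower genes also separate THP6 from CCRF-CEM and MOLT4 alone, so this is no check on SUP-T1. Against those lines alone the rule is met by 1011 higher (5.53%) and 1457 lower genes (7.97%). With the SUP-T1 libraries labelled knockdown in place of those labelled control, the counts were 758 and 921, and 704 and 854 genes met the rule either way. GATA3 itself was higher in THP6 than in SUP-T1, CCRF-CEM and MOLT4 by 2.45 ± 0.0683, 0.62 ± 0.0636 and 1.05 ± 0.0732 (log2 fold change ± SE), too little against CCRF-CEM to meet the rule.

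The 11 libraries held 18624330 to 36216415 counts each, and those of THP6 18624330 to 27870120. Mitochondrial genes took 1.23 to 1.5% of the THP6 counts and 0.667 to 1.9% over all 11 libraries. Scatter between libraries of a line was 10.6 times what counting alone gives in THP6, 7.03 in SUP-T1, 11 in MOLT4 and 90.6 in CCRF-CEM. The 4 lines shared 1 estimate of the spread per gene, so an SE against CCRF-CEM does not carry its wider scatter in full. Markers of cell type were summed, which bears on the kind of cell and not on which T-ALL line it is. Summed over 11 T cell genes, the THP6 libraries reached 1712 to 1744 CPM with no gene at 0 although CD2 lay at 0.213 to 0.266 CPM, TRAC at 0.142 to 0.349 and PTCRA at 0.0664 to 0.142, against 4151 to 4385 in SUP-T1, 1889 to 2025 in CCRF-CEM and 3510 to 3711 in MOLT4. The sum over 12 monocyte and myeloid genes was 16.5 to 17.7 CPM in THP6, nearly all of it ITGAM, with CD33, CSF3R, FCN1, S100A8 and MNDA at 0. That sum was 1.51 to 1.81 CPM in SUP-T1, 1.41 to 3.1 in CCRF-CEM and 0.853 to 0.932 in MOLT4.

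The 3 comparisons taken one by one called most of the transcriptome at an adjusted p below 0.05, 13098 genes against SUP-T1 (71.6%), 11955 against CCRF-CEM (65.4%) and 12328 against MOLT4 (67.4%). In all 3 comparisons 2593 genes were called higher in THP6 (14.2%) and 2340 lower (12.8%). With a minimum of 2-fold, THP6 differed from SUP-T1 at 36.1% of genes, from CCRF-CEM at 28.8% and from MOLT4 at 32.6%. The other 3 pairs of lines differed at 34.5% (SUP-T1 and CCRF-CEM), 32.2% (SUP-T1 and MOLT4) and 32.1% (CCRF-CEM and MOLT4). The same separating rule with another line in the place of THP6 gave 996 higher (5.45%) and 1235 lower (6.75%) genes in SUP-T1, 705 (3.85%) and 691 (3.78%) in CCRF-CEM, and 1434 (7.84%) and 390 (2.13%) in MOLT4. The number of genes that separate THP6 lay inside the range of the other 3 lines in both directions. These counts share libraries, so they are set side by side and not tested against each other.

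**Figure D1:**
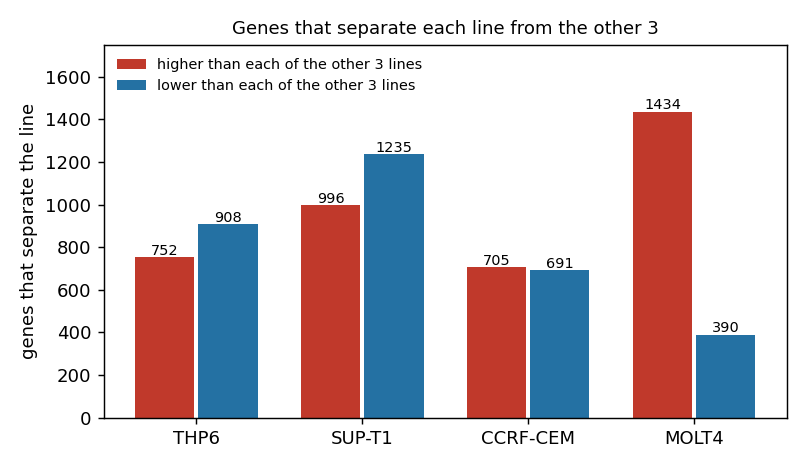
Number of genes (vertical axis) that separate each of the 4 lines from the other 3, with red bars for genes higher and blue bars for genes lower in that line. THP6 has 752 higher and 908 lower genes, and the other 3 lines have 705 to 1434 higher and 390 to 1235 lower.

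The genes with the widest gap upward had little in common by function. GYG2, a glycogenin that primes glycogen synthesis (X:2828788-2882820, GRCh38, plus strand), was at 23.8, 24.7 and 24.0 CPM in THP6 and had no count in the other 8 libraries. Set against a floor of 3 counts per line, it was at least 730-fold higher than SUP-T1, at least 584-fold higher than CCRF-CEM and at least 452-fold higher than MOLT4. Its neighbour ARSD, an arylsulfatase gene (X:2903970-2929351, minus strand), was at 13.1, 13.7 and 14.3 CPM in THP6 and also had no count in the other 8. Among these 4 lines both genes had counts in THP6 alone, and in H9, MyLa and Mac1, the other 3 T cell lines of the series, neither control mean passed 0.0125 CPM. Both genes overlap an antisense gene, and the sources do not state whether the counting used strand, so reads of the partners cannot be told apart.

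GIMAP4, a GTPase gene of the lymphocyte survival family on chromosome 7, was at 314, 319 and 322 CPM in THP6. It was at 0.558, 0.571 and 0.427 CPM in SUP-T1, 0.363, 0.620 and 0.634 in CCRF-CEM, and 0 and 0.0341 in MOLT4. The log2 fold changes were 9.25 ± 0.114 against SUP-T1 and 9.20 ± 0.117 against CCRF-CEM. BLK, a Src-family kinase best known from B cells, was at 67.7, 60.5 and 61.9 CPM in THP6 and at most 0.363 CPM in any library of the other 3 lines. BLK was not particular to THP6 across the series, since the control means of H9, MyLa and Mac1 were 80.3, 132 and 148 CPM. MYO1F, an unconventional myosin of immune cells, was at 160, 143 and 157 CPM in THP6 and at most 2.09 CPM in the other 8 libraries. CNR2, the peripheral cannabinoid receptor, was at 41.3, 37.2 and 39.2 CPM against at most 0.605.

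The same order of size also named 6 other genes. HTR3B, a serotonin receptor subunit, was at 18.3 to 19.8 CPM in THP6 and at most 0.1 CPM elsewhere. RAET1E, a ligand of the activating receptor NKG2D, was at 10.3 to 10.9 CPM against at most 0.167, and C11orf21 at 16.1 to 20.2 CPM against at most 0.102. CACNA1A, a calcium channel pore, was at 33.1 to 33.3 CPM against at most 0.743, and TJP3, a tight junction scaffold, at 38.0 to 41.3 against at most 1.32. SMAD7, an inhibitor of transforming growth factor signalling, was at 28.8 to 38.1 CPM in THP6 and at most 1.01 in the other 8 libraries, but between 24.6 and 33.3 CPM in H9, MyLa and Mac1.

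**Figure D2:**
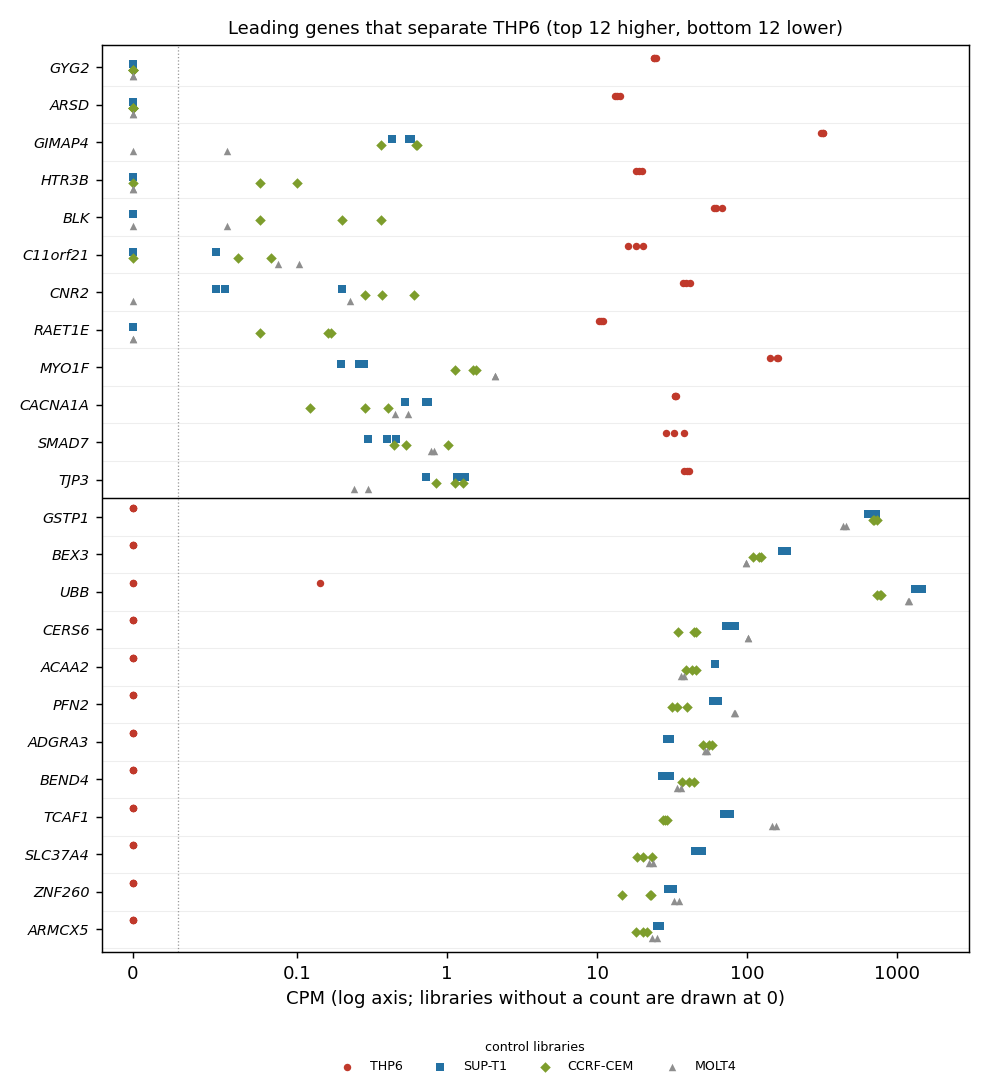
CPM of the 12 leading higher genes (above the black line) and the 12 leading lower genes (below it) in each of the 11 control libraries, on a log axis with libraries without a count drawn at 0. Each mark is 1 library. THP6 (red circles) stands to the right of all other marks in the upper block, and 11 of the 12 genes in the lower block had no THP6 count at all.

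Many of the lower genes were without counts in THP6. Of the 908 lower genes, 223 had no count in any THP6 control library and another 120 had 1 to 3 counts in all. The same count with another line in the place of THP6 was 240 of 1235 lower genes in SUP-T1, 69 of 691 in CCRF-CEM and 34 of 390 in MOLT4, so such genes were not particular to THP6. GSTP1, a glutathione transferase that detoxifies electrophiles (11:67583595-67586656, plus strand), had no THP6 count. It was at 637, 658 and 723 CPM in SUP-T1, 704, 739 and 690 CPM in CCRF-CEM, and 438 and 454 CPM in MOLT4. THP6 was at least 17600-fold lower than SUP-T1, at least 18600-fold lower than CCRF-CEM and at least 11700-fold lower than MOLT4. GSTP1 was also listed at 0 in the H9 and MyLa controls, and at 237 CPM in Mac1.

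UBB, a polyubiquitin gene, had 4 counts in THP6, all in the second library. It was at 0, 0.142 and 0 CPM there, and at 1324, 1365 and 1466 CPM in SUP-T1, 766, 779 and 738 CPM in CCRF-CEM, and 1190 and 1201 CPM in MOLT4. The THP6 mean was 29300-fold, 16100-fold and 25300-fold below those lines, ratios that rest on those 4 counts. HSPA8, a constitutive heat shock chaperone, separated THP6 as well, at 171, 224 and 210 CPM against 1523 to 2905 CPM in the other 8. HSPA8 did not do so in the knockdown libraries, where its THP6 mean was 983 CPM.

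Another group of low or absent genes sat side by side on the long arm of the X chromosome. In the window from 100 to 105 megabases (Mb), 12 of 42 protein coding genes tested were lower in THP6, against 5.25% of all protein coding genes (723 of 13781; 3.82% were higher). They include ARMCX3, ARMCX5 and ARMCX6 (3 of 5 ARMCX genes, armadillo-repeat proteins), BEX3 and BEX4 (2 of 5 BEX genes, small brain-expressed adaptor proteins), GPRASP1 and TCEAL9. BEX3 had no THP6 count and was at 171 to 185 CPM in SUP-T1, 110 to 124 in CCRF-CEM and 98.7 in both MOLT4 libraries. TCEAL9 had no THP6 count either and was at 5.47 to 41.2 CPM in the other 8, and GPRASP1 had none against 0.282 to 23.8. ARMCX6 was at 4.95, 4.68 and 4.04 CPM against 38.4 to 45.8. BEX4 fell short of absence, at 28.8, 30.8 and 28.6 CPM against 52.2 to 83.7, and no longer met the rule without the first CCRF-CEM library, where its smallest log2 fold change was −0.97.

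The remaining leading genes without a THP6 count have unlike roles. CERS6, a ceramide synthase, was at 34.8 to 102 CPM in the other 8 libraries, and PFN2, an actin-binding profilin, at 31.6 to 83.3. ACAA2, a thiolase of mitochondrial fatty acid oxidation, was at 36.5 to 61.6 CPM, and SLC37A4, the glucose-6-phosphate translocase, at 18.5 to 50.3. TCAF1, a cofactor of TRP channels, was at 27.4 to 155 CPM, ADGRA3, an adhesion receptor, at 29.3 to 58.7, and BEND4 at 27.1 to 44.5. ACAA2, PFN2, TCAF1 and SLC37A4 were also below all control libraries of H9, MyLa and Mac1.

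A large family with many lower members was that of the zinc finger genes of chromosome 19. These encode proteins that bind DNA through arrays of zinc fingers, most of them with a KRAB domain that recruits repressors, and they lie in clusters of near relatives. Of the 226 tested ZNF and ZFP genes on chromosome 19, 82 were lower in THP6 (36.3%) and 1, ZNF524, was higher (21.3, 21.3 and 21.7 CPM against 5.52 to 8.62). Of the 242 elsewhere in the genome, 19 were lower (7.85%), and of the 834 other protein coding genes of chromosome 19, 30 were lower (3.6%). With the other lines in the place of THP6 the rule found 6 lower genes among the 226 in SUP-T1, 3 in CCRF-CEM and 0 in MOLT4. Of the 82 genes, 44 had no count in any THP6 control library.

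The 82 genes run from 9323772 to 58315197 on chromosome 19, and were not confined to 1 cluster. Between 36 and 38 Mb 16 of 29 zinc finger genes were lower, between 52 and 54 Mb 12 of 31, and between 56 and 58 Mb 12 of 37. The median level of the 226 genes was 2.64 CPM in THP6, 10.7 in SUP-T1, 8.03 in CCRF-CEM and 11.4 in MOLT4. Below 0.1 CPM lay 88 of them in THP6 (38.9%), 24 in SUP-T1, 17 in CCRF-CEM and 2 in MOLT4, while 10.9%, 9.29%, 7.89% and 3.82% of all protein coding genes tested did so in these lines. THP6 was not at the end of the range over the whole series. In MyLa 130 of the 226 lay below 0.1 CPM and in Mac1 100, against 25 in H9, and only 6 of the 82 were below all control libraries of all 6 other lines.

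**Figure D3:**
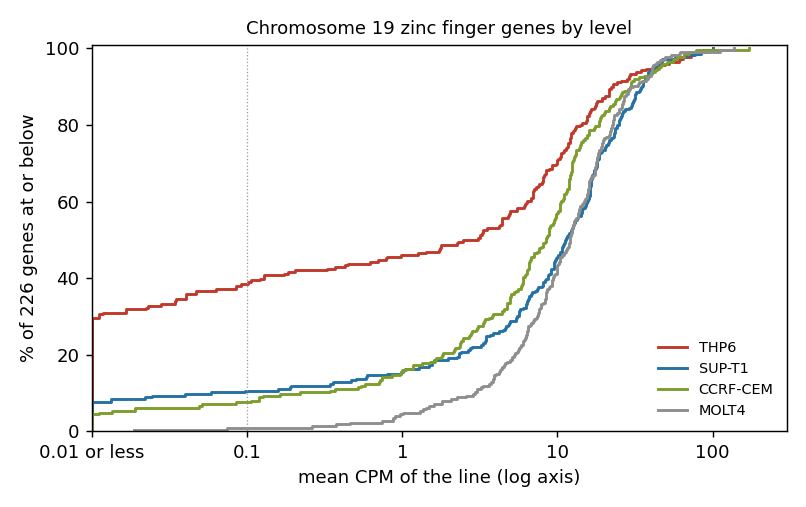
Share of the 226 tested zinc finger genes of chromosome 19 (vertical axis, %) whose mean CPM in a line is at or below the value on the log horizontal axis, as 1 line per cell line. The dotted line marks 0.1 CPM, below which lay 88 of the genes in THP6 and 24, 17 and 2 in SUP-T1, CCRF-CEM and MOLT4.

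Named members show the range. ZNF260 had no THP6 count and was at 31.9, 30.5 and 29.9 CPM in SUP-T1, 22.9, 14.6 and 22.4 in CCRF-CEM, and 35.2 and 32.4 in MOLT4. ZNF426 was at 0.232, 0.177 and 0.200 CPM in THP6 against 24.1 to 34.5 CPM in the other 8. ZNF227 was at 1.49, 1.17 and 1.15 CPM against 25.4 to 37.4, and ZNF468 at 6.31, 4.54 and 5.64 CPM against 28.1 to 37.8. The last 3 were chosen after their values were seen, as members with many counts in the other lines. Their close relatives share sequence, so counts of single members are uncertain where reads fit more than 1 gene.

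The promoters of 3 genes (RefSeq, GRCh38.p14, the 250 bases before the annotated start) are shown because they come from genes described so far and from an effector gene described below. They run from the lower GSTP1 and ZNF426 to the higher GZMA, each printed 5′ to 3′ on the strand of its gene with every CG dinucleotide in capitals. GSTP1 (chr11:67583562-67583811, plus strand) holds 28 CG, ZNF426 (chr19:9538646-9538895, minus strand) 16 and GZMA (chr5:55102396-55102645, plus strand) 1. GENCODE 29 begins GSTP1 inside the window shown.
GSTP1: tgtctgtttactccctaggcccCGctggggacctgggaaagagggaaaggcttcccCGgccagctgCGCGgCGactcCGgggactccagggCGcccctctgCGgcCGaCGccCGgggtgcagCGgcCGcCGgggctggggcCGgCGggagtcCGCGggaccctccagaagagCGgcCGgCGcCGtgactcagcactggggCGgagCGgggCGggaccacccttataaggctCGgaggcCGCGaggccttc
ZNF426: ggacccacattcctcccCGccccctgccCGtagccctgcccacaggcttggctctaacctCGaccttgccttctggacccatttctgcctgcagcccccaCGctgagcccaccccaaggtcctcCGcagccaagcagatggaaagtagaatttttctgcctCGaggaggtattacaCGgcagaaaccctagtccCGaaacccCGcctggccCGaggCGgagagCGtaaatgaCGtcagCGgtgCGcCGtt
GZMA: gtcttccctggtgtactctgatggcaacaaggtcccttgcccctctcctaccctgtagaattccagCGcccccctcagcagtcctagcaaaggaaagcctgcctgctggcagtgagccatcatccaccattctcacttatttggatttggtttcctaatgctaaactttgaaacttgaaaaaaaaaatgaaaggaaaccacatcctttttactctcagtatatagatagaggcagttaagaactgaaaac

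CG reads the same on both strands, and it was counted in the same window of 11063 of the 13781 protein coding genes tested. The median was 21 in all of these genes, 20 in those lower in THP6, 18 in the lower genes without a THP6 count and 15 in those higher. At least 20 CG stood in 54.0%, 52.0%, 46.5% and 38.5% of these windows, and in 32.4% of all promoters of the table. The lower zinc finger genes of chromosome 19 had a median of 14 and those that did not separate THP6 a median of 17.5. So the higher genes had fewer CG than the lower ones, and the lower zinc finger genes fewer than their relatives. DNA methylation was not measured in this series.

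Several genes for surface proteins of the thymocyte stages had low RNA levels in THP6. Of 25 tested stage antigens 7 were lower (CD1A, CD1B, CD1C, CD1E, CD8A, CD69 and CCR9) and 2 higher (CD52 and CD96). Of all genes, 4.96% were lower and 4.11% higher. The median log2 fold changes over the 25 were −2.53, −0.99 and −1.09 against SUP-T1, CCRF-CEM and MOLT4, beside −0.0029, 0 and −0.0488 over all genes. CD1A, which presents lipids and marks cortical thymocytes, was at 0.232, 0.142 and 0.150 CPM in THP6. It was at 477, 475 and 450 CPM in SUP-T1, 21.3, 22.0 and 25.4 in CCRF-CEM, and 48.0 and 46.1 in MOLT4 (log2 fold changes −11.32 ± 0.131, −6.97 ± 0.156 and −8.00 ± 0.15). CD1C had no count in THP6 and 1.63 to 38.7 CPM in the other 8 libraries. CD1E was at 0.266, 0.071 and 0.0998 CPM against 9.75 to 359. Part of this was shared, since CD1A, CD1B, CD1C, CD1E and CD8A were also at least 2-fold lower in CCRF-CEM than in SUP-T1 and MOLT4.

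CD8A, a chain of the CD8 coreceptor, was at 0.365, 0.213 and 0.0998 CPM in THP6 against 2.43 to 110. CCR9, the chemokine receptor of thymic homing, was at 0.598, 0.781 and 0.299 CPM against 3.66 to 174. CD4 did not separate THP6, since its 8.96, 9.62 and 8.58 CPM lay above the 3.50 and 3.00 CPM of MOLT4 and below the 153 to 398 CPM of the other 6. CD96, a receptor of T and NK cells, was the reverse of the CD1 genes, at 90.5, 80.4 and 82.3 CPM in THP6 against 2.34 to 7.23. Among the broad T cell genes neither CD3E, at 398, 364 and 360 CPM, nor CD7, at 172, 183 and 185 CPM, met the rule.

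Of 15 genes of V(D)J recombination 2 were lower in THP6, both chains of the RAG recombinase, and 2 higher, the surrogate light chain genes IGLL1 and VPREB1. These counts stand beside 4.96% lower and 4.11% higher of all genes. The medians of the list were −0.41, 0.11 and 0.13 against SUP-T1, CCRF-CEM and MOLT4. RAG1 was at 3.25, 3.65 and 2.69 CPM in THP6, 248, 265 and 232 in SUP-T1, 59.8, 50.7 and 61.2 in CCRF-CEM, and 234 and 223 in MOLT4. RAG2 was at 2.62, 2.02 and 2.00 CPM in THP6 and 8.23 to 121 CPM in the other 8. The 2 genes overlap on opposite strands, and both were also at least 2-fold lower in CCRF-CEM than in SUP-T1 and MOLT4. IGLL1, a surrogate light chain gene of early B cells, was at 519, 663 and 611 CPM in THP6, 0.0399, 0.143 and 0.0985 in SUP-T1, 104, 102 and 92.9 in CCRF-CEM, and 35.0 and 38.7 in MOLT4. VPREB1 was at 2.72, 3.41 and 2.89 CPM in THP6 and at most 0.282 CPM elsewhere. DNTT, the template-free polymerase of V(D)J joining, did not separate THP6, at 0.499 to 1.16 CPM against 39.7 to 44.3 in SUP-T1 and at most 0.133 in the other lines.

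**Figure D4:**
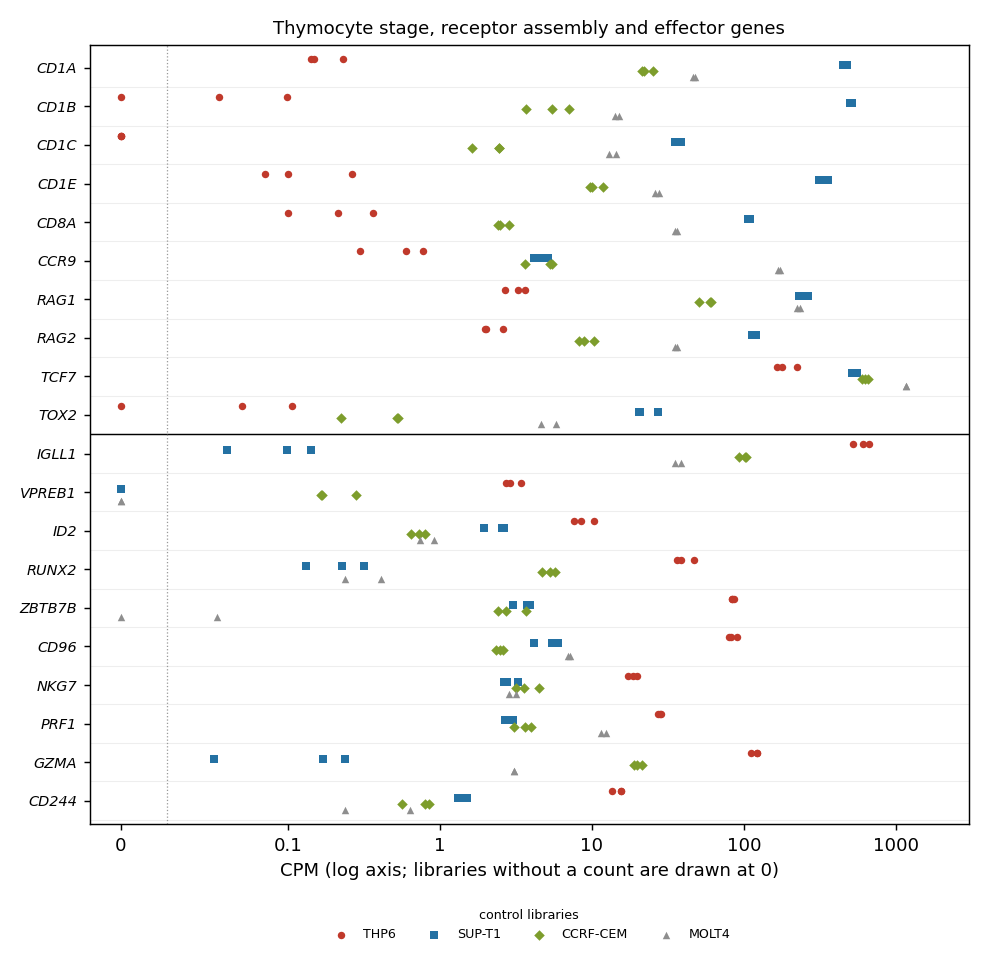
CPM of genes of thymocyte stage, receptor assembly and effector function in each of the 11 control libraries, on a log axis with libraries without a count drawn at 0. Genes above the black line are lower in THP6 (red circles) than in all other libraries, and genes below it are higher.

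Transcription factors of the T lineage changed in both directions, 5 of 32 higher and 2 lower, beside 4.11% and 4.96% of all genes. TCF7, a Notch-induced factor of early T cells, was at 223, 164 and 178 CPM in THP6 against 513 to 1165 in the other 8 libraries. TOX2, a relative of the thymocyte selection factor TOX, was at 0, 0.106 and 0.0499 CPM against 0.225 to 27.4. RUNX2 was higher, at 47.1, 36.1 and 38.6 CPM against at most 5.77 CPM. ZBTB7B, which directs thymocytes to the CD4 lineage, was at 85.6, 83.5 and 83.0 CPM against at most 3.95. ID2 and ID3, inhibitors of E proteins, were at 7.68 to 10.3 and 75.8 to 85.3 CPM against at most 2.63 and 37.3. ZBTB16, the innate lymphocyte factor PLZF, was at 6.04, 4.86 and 5.94 CPM against at most 2.09. BCL11B, required for T lineage commitment, did not separate THP6, at 80.4 to 97.0 CPM against 58.5 to 204.

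None of the 16 tested T-ALL driver genes separated THP6 from all 3 lines, the list having a median log2 fold change of 2.94 against SUP-T1, or 1.85 with genes absent from 1 of the lines set at their bound. TAL1, the helix-loop-helix factor that is the best known T-ALL driver, was at 73.9, 73.3 and 70.0 CPM in THP6, 42.4, 45.3 and 45.4 in CCRF-CEM, 39.1 and 45.5 in MOLT4, and had no count in SUP-T1. The log2 fold change of TAL1 was 0.71 ± 0.071 against CCRF-CEM and 0.78 ± 0.0802 against MOLT4, below the minimum. LMO2, a partner of TAL1, was at 32.7, 36.8 and 36.5 CPM in THP6, next to 36.5 and 38.5 CPM in MOLT4.

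THP6 shared high or low levels of some driver genes with each of the other lines, with SUP-T1 mainly low ones. Genes called at 2-fold or more in all 4 comparisons between THP6 or CCRF-CEM and SUP-T1 or MOLT4 numbered 503 higher (2.75%) and 960 lower (5.25%). The corresponding counts were 205 (1.12%) and 500 (2.73%) for THP6 with SUP-T1, and 422 (2.31%) and 241 (1.32%) for THP6 with MOLT4. NKX2-5, a homeobox factor activated in some T-ALL, was at 321, 295 and 298 CPM in THP6, 632, 729 and 659 in CCRF-CEM, 30.9 and 32.7 in MOLT4, and at most 0.0328 in SUP-T1. LYL1, a relative of TAL1, was at 107, 126 and 127 CPM in THP6 and 128 to 152 in CCRF-CEM, against at most 0.514 in the other lines. MEF2C was at 27.4 to 33.3 and 43.8 to 50.5 CPM in THP6 and CCRF-CEM, against at most 0.457. With SUP-T1, THP6 shared low HOXA10 (no count in either line, against 10.4 to 14.4 CPM), low TLX1 (at most 0.0332 CPM, against 0.113 to 4.14) and higher NKX2-2 (0.603 to 0.699 CPM in THP6 and 1.81 to 2.23 in SUP-T1, against at most 0.224). With MOLT4 it shared MYCN, at 11.2 to 14.2 CPM in THP6 and 15.3 and 15.5 in MOLT4, against 2.67 to 4.17 in CCRF-CEM and no count in SUP-T1. MTAP, a methionine salvage gene next to CDKN2A that is often lost in T-ALL, was at 0.133, 0.248 and 0.200 CPM in THP6 and 0.1 to 0.338 in CCRF-CEM, against 28.8 to 30.9 in SUP-T1 and 54.4 and 55.3 in MOLT4.

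THP6 and CCRF-CEM also had the same leading beta chain segment of the T cell receptor. TRBV3-1, a variable segment of the beta chain, took 99.6% of all beta chain variable counts in THP6 and 98.2% in CCRF-CEM. It was at 99.6, 102 and 92.8 CPM in THP6 and 239, 214 and 238 CPM in CCRF-CEM, and had no count in SUP-T1 and MOLT4. In these lines TRBV9 and TRBV20-1 led instead. The markers given here bear on cell type, and the identity of the lines was not tested. GATA2, a relative of GATA3, set THP6 and CCRF-CEM apart, since it had no THP6 count and was at 28.0 to 34.4 CPM in CCRF-CEM.

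Of 32 tested genes of receptor signalling 6 were higher and 2 lower, beside 4.11% and 4.96% of all genes. LCP2, the adaptor SLP-76, was at 169, 141 and 144 CPM in THP6 against 36 to 71.3 in the other 8 libraries. SKAP1, an adaptor of integrin activation, was at 86.3, 85.6 and 86.0 CPM against 15.5 to 16.8 in SUP-T1 and at most 0.845 in the other lines. SH2D1A, the adaptor SAP, was at 192, 186 and 178 CPM against 5.49 to 79.7. The gamma chain constant genes TRGC1 and TRGC2 were also higher, TRGC2 at 12.5 to 15.5 CPM against at most 6.38. GRAP2, the adaptor GADS that binds SLP-76, was lower, at 2.26, 2.27 and 2.3 CPM against 14.3 to 94.3. TRBC2, a beta chain constant gene with a near-identical copy, was lower at 522, 525 and 544 CPM against 1015 to 2441, and its log2 fold change of −1.005 against CCRF-CEM lay at the threshold. Without the second CCRF-CEM library or the first or second THP6 library TRBC2 missed it, at −0.97, −0.99 and −0.996.

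The Notch pathway gave 2 higher and 2 lower genes of 26 (7.69% each), near the 4.11% and 4.96% of all genes. Its medians were −1.36, −0.12 and −0.28 against SUP-T1, CCRF-CEM and MOLT4. NRARP, a feedback inhibitor that Notch induces, had no THP6 count, against 372 to 409 CPM in SUP-T1 but only 0.171 to 0.564 in the other 2 lines. JAG1, a ligand, had 2 counts in THP6 against 0.171 to 4.54 CPM. LFNG, a glycosyltransferase that modifies Notch, was at 3.14 to 3.85 CPM against at most 1.25, and the ligand DLL1 at 3.87 to 4.09 CPM against at most 2.05. Leaving out the first or the second MOLT4 library ended the DLL1 call in edgeR's quasi-likelihood test, with adjusted p of 0.0755 and 0.0507. NOTCH1 was at 208, 192 and 227 CPM in THP6, inside the 201 to 268 CPM of CCRF-CEM in 2 of 3 libraries and below the 499 to 2043 CPM of SUP-T1 and MOLT4. NOTCH3 and the pre-T alpha gene PTCRA were low in THP6 and CCRF-CEM alike, and HES1, a Notch target, overlapped between THP6 and SUP-T1 and between THP6 and CCRF-CEM.

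Effector genes of cytotoxic lymphocytes were the list with the largest share of higher members, 6 of the 11 tested (54.5%) and none lower. Of all genes, 4.11% were higher and 4.96% lower. The other 11 of the 22 members did not pass the count filter, which a gene high in THP6 alone can pass. The median log2 fold changes were 3.19, 2.32 and 2.61 against SUP-T1, CCRF-CEM and MOLT4. GZMA, a granule protease, was at 111, 122 and 122 CPM in THP6, 0.239, 0.171 and 0.0328 in SUP-T1, 21.4, 19.7 and 19 in CCRF-CEM, and 3.09 and 3.07 in MOLT4 (log2 fold changes 9.64 ± 0.165, 2.56 ± 0.0888 and 5.26 ± 0.13). PRF1, which encodes perforin, was at 28.7, 28.2 and 27.3 CPM against 2.69 to 12.4. NKG7, a granule membrane protein, was at 17.4 to 19.7 CPM against at most 4.51, and CD244, an activating receptor, at 13.6 to 15.5 against at most 1.52. NCR3 and CST7 were the other 2. Some of the list was shared: GZMA, GZMM, CTSW and EOMES were at least 2-fold higher in both THP6 and CCRF-CEM than in SUP-T1 and MOLT4. TBX21 and NCAM1 were lower in both by the same measure. PRF1 was at least 2-fold higher in both THP6 and MOLT4 than in SUP-T1 and CCRF-CEM. The NK cell markers KLRD1, FCGR3A and NCR1 were at 0 in all THP6 libraries. MOLT4 had the largest sum over the 6 NK markers, 42.3 to 46.2 CPM, nearly all of it NCAM1. THP6 reached 17.4 to 19.8 CPM, nearly all of it NKG7, SUP-T1 2.69 to 3.41 CPM and CCRF-CEM 3.27 to 4.79 CPM. In the control libraries of H9 and Mac1, PRF1 was at 277 and 525 CPM on average.

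Homing and adhesion receptors were higher at 4 of 22 genes, with none lower, beside 4.11% and 4.96% of all genes. S1PR1, the receptor of exit from lymphoid tissue, was at 32.5, 23.1 and 25.8 CPM against at most 5.70. SELPLG, the selectin ligand PSGL-1, was at 89.0 to 94.9 CPM against 24.3 to 41.6, and CCR8 at 1.24 to 1.86 against at most 0.0745.

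Among cytokine receptors and JAK-STAT genes 4 of 33 were higher and 1 lower, beside 4.11% and 4.96% of all genes. IL2RB, the beta chain of the IL-2 and IL-15 receptors, was at 25.8, 22.5 and 22.1 CPM in THP6 against at most 6.19 in the other 8 libraries, and IL12RB1 at 10.4 to 10.7 against at most 3.07. IFNGR2, a chain of the interferon gamma receptor, was at 0, 0.142 and 0.249 CPM against 15.6 to 38.0, and below all control libraries of all 6 other lines.

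A few genes of other lineages were also higher, where 4.11% of all genes were. Among 14 tested myeloid genes 3 were higher, but the medians of the list were 0, −0.33 and −1.45 against SUP-T1, CCRF-CEM and MOLT4, and CEBPA, CEBPD, LYN and VCAN had no THP6 count. ITGAM, the integrin CD11b, was at 15.8, 17.4 and 17 CPM against at most 1.35. CEBPB, a factor of myeloid cells and of activated lymphocytes, was at 313, 269 and 285 CPM in THP6, 40.1, 32.1 and 30.6 in SUP-T1, 107, 110 and 97.7 in CCRF-CEM, and 71.0 and 76.2 in MOLT4. ITGAX was at 0.200 to 0.497 CPM against at most 0.0404. Of 9 tested B cell genes 2 were higher, BLK (described above) among them. The count filter left out 14 of 28 myeloid and 5 of 14 B cell members. A gene high in THP6 alone can pass it. The sum over the 6 B cell markers was 49.5 to 54.1 CPM in THP6, of which CD79B made up 36.9 to 39.8 and CD79A 9.26 to 10.1. That sum was 4.63 to 5.3 CPM in SUP-T1, 28.4 to 30.2 in CCRF-CEM and 27.5 to 28.0 in MOLT4. Over the 9 stromal and epithelial markers it was 0.797 to 0.948 CPM in THP6, 5.38 to 6.23 in SUP-T1 and 18.7 to 20.6 in CCRF-CEM. In MOLT4 it was 112 to 116 CPM, most of it PECAM1 (89.6 to 93.8). The part of other cell types in these results was not tested. PRAME, an antigen of many leukaemias, was at 130, 129 and 130 CPM in THP6, 0.558, 0.743 and 0.492 in SUP-T1, 15.7, 17.7 and 14.6 in CCRF-CEM, and 5.74 and 5.80 in MOLT4.

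Nearly all tested members of 2 gene families were higher, where 3.82% of all protein coding genes were. These families were chosen after their values were seen, and a gene high in THP6 alone can pass the count filter. Of 7 tested GIMAP genes, which form 1 cluster on chromosome 7, 6 were higher in THP6, and the exception, GIMAP2, was higher by less than 2-fold against SUP-T1 and CCRF-CEM. GIMAP6 was at 202, 180 and 174 CPM against 1.88 to 60 in the other 8 libraries, GIMAP7 at 84.8, 74.9 and 79.9 CPM against 0.261 to 18.3, and GIMAP5 at 147, 112 and 114 CPM against 2.56 to 17.4. GIMAP1 and GIMAP5 overlap on the same strand. GIMAP8 was low throughout, at 0.948 to 1.31 CPM against at most 0.282. Of the 6, 5 were also above every control library of H9, MyLa and Mac1.

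All 6 tested APOBEC3 genes, cytidine deaminases that restrict retroviruses and lie in 1 cluster on chromosome 22, were higher in THP6. APOBEC3B was at 97.4, 112 and 103 CPM in THP6, 0.0399, 0.0857 and 0.131 in SUP-T1, 9.64, 11.4 and 9.04 in CCRF-CEM, and 0.224 and 0.102 in MOLT4. APOBEC3C was at 162, 178 and 159 CPM against 38.5 to 45.9 in CCRF-CEM and MOLT4 and at most 0.886 in SUP-T1, and APOBEC3G at 38.4, 40.1 and 36.5 CPM against at most 7.01. SUP-T1 had the lowest levels of APOBEC3C and APOBEC3G, and its APOBEC3B values overlapped those of MOLT4. APOBEC3B was the 1 member that was also above all controls of H9, MyLa and Mac1. The members are close relatives, and APOBEC3B overlaps APOBEC3A, so single values are uncertain. Of 6 tested HOXC genes, homeobox factors of body patterning, HOXC8, HOXC9, HOXC10 and HOXC11 were higher, beside 3.82% of all protein coding genes. This family too was chosen after its values were seen. HOXC10 was at 7.11, 7.66 and 7.48 CPM against at most 0.969. HOXC11, at 0.248 to 0.399 CPM, lost its call without the first MOLT4 library (adjusted p = 0.0847 in edgeR's test), and in DESeq2 both HOXC8 and HOXC11 did (adjusted p = 0.0547 and 0.0905).

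**Figure D5:**
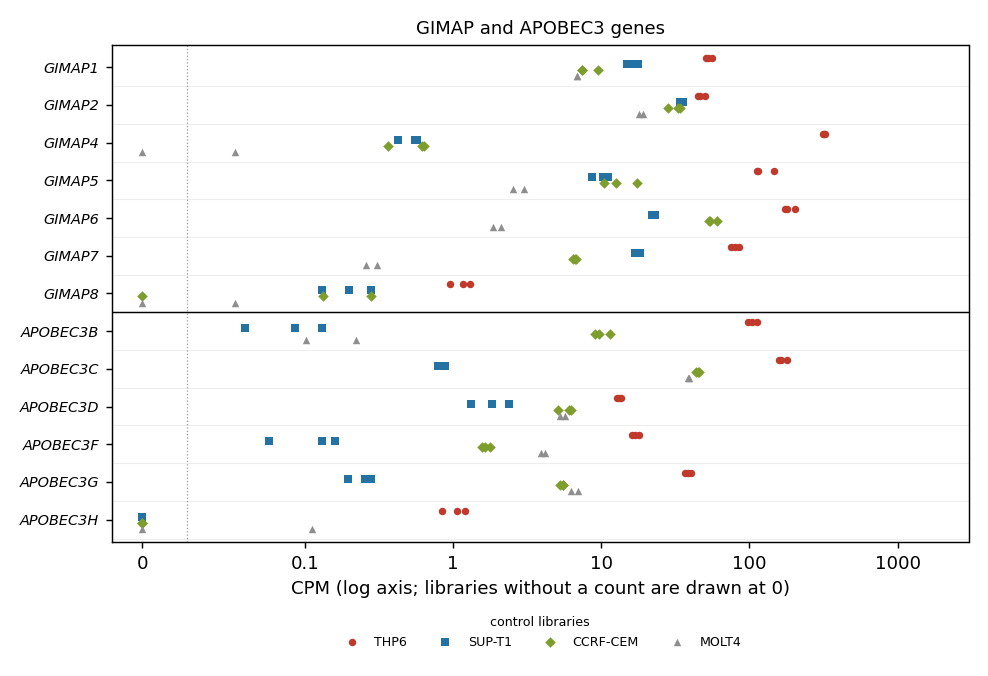
CPM of the 7 tested GIMAP genes (above the black line) and the 6 tested APOBEC3 genes (below it) in each of the 11 control libraries, on a log axis with libraries without a count drawn at 0. THP6 (red circles) is to the right of the other lines at every gene shown, and the gap is narrowest at GIMAP2, which did not meet the rule.

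Interferon-response genes gave 5 higher and 1 lower of 34, beside 4.11% and 4.96% of all genes. OAS1 was at 13.9, 13.7 and 13.6 CPM in THP6, had no count in SUP-T1 and was at 4.11 to 4.54 in CCRF-CEM and 2.05 to 2.16 in MOLT4. OASL was at 9.26 to 9.76 CPM against at most 0.395. IRF9, a subunit of the interferon-activated factor, was at 14.0 to 15.2 CPM against 5.09 to 7.17. IFI35 was lower, at 0.497 to 0.599 CPM against 1.43 to 9.52. The medians of the list were 3.27 against SUP-T1 (3.03 with absent genes at their bound), 0.68 against CCRF-CEM and 0.04 against MOLT4, so most of its members differed from SUP-T1 rather than from all 3 lines. Of 15 genes of MHC class I presentation 9 were called higher in all 3 comparisons and 1 lower when no minimum fold is asked, beside 14.2% and 12.8% of all genes. The medians of that list were 0.98, 0.72 and 0.75 against SUP-T1, CCRF-CEM and MOLT4. PSMB10, an immunoproteasome subunit, was the 1 member that met the full rule, at 196, 226 and 209 CPM against 10.8 to 68.5. Of 18 tested NF-kB targets TRAF1, TNF and BCL3 were higher (16.7%, beside 4.11% of all genes). BCL3 was at 6.32 to 11.4 CPM against at most 1.23.

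In the lists of cholesterol synthesis, ribosome biogenesis, glycolysis and hypoxia, and drug and nucleoside metabolism, the genes that separated THP6 were lower. Their shares were 22.7%, 5.0%, 10.0% and 9.09%, beside 4.96% of all genes. Ribosome biogenesis lay at that share, and the lists of glycolysis and of nucleoside metabolism rest on 3 and 2 genes. Of 22 cholesterol synthesis genes 5 separated THP6, IDI1, LSS and TM7SF2 among them. In all 3 comparisons 11 were called lower and 1 higher when no minimum fold is asked, beside 12.8% and 14.2% of all genes. The medians were −0.69, −1.07 and −0.58 against SUP-T1, CCRF-CEM and MOLT4. IDI1, the isopentenyl diphosphate isomerase, was at 39.3, 48.6 and 42.6 CPM in THP6 against 90.2 to 173 in the other 8 libraries. LSS, the lanosterol synthase, was at 85.2, 109 and 104 CPM against 228 to 299. TM7SF2, a sterol reductase, was at 8.63, 6.49 and 7.33 CPM against 24.9 to 39.8. Of 20 ribosome biogenesis genes, 14 were called lower in all 3 comparisons, with medians of −0.68, −1.10 and −0.44, and 1 gene, ODC1, that met the full rule. ODC1, the first enzyme of polyamine synthesis, was at 144, 147 and 135 CPM against 314 to 542. MYC, which is known to drive ribosome biogenesis and ODC1, was at 235, 212 and 222 CPM against 338 to 538. The difference was less than 2-fold against SUP-T1 and MOLT4, and the part of MYC in these levels was not tested.

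Of 30 glycolysis and hypoxia genes 3 were lower, the phosphofructokinases PFKM and PFKP and the peptide hormone gene ADM. PFKP was at 55.9, 59.0 and 62.6 CPM in THP6 against 227 to 259, and PFKM at 21.7, 24.8 and 24.6 against 69.5 to 140. Of 22 genes of drug and nucleoside metabolism, ADA and SLC29A1 were lower. ADA, adenosine deaminase, was at 146, 155 and 154 CPM in THP6, 1569, 1621 and 1662 in SUP-T1, 350, 371 and 355 in CCRF-CEM, and 878 and 902 in MOLT4. SLC29A1, the nucleoside carrier by which cytarabine enters cells, was at 57.6 to 63.2 CPM against 123 to 406. Of 21 genes of cell cycle entry and p53, 1 was lower and 1 higher (4.76% each), near the 4.96% and 4.11% of all genes. CDKN1A, the p53-induced cell cycle inhibitor p21, was at 0.898 to 1.35 CPM against 7.13 to 30.4, and CCND1, the cyclin D1 gene, at 0.398, 0.319 and 0.399 CPM against at most 0.113. Of the other lists, PIK3R6, a regulatory subunit of PI3K, was the 1 higher of 23 PI3K genes (4.35%, near the 4.11% of all genes). It was at 20 to 21.1 CPM against at most 3.10. None of 13 HOXA and HOXB genes separated THP6. The BCL2 family gave 1 lower gene of 14 (7.14%, beside 4.96% of all genes). This was the BH3-only gene HRK, which had no THP6 count against 0.534 to 2.23 CPM. None of 25 mitosis genes, 25 DNA replication genes or 27 oxidative phosphorylation genes met the rule. With no minimum fold 3, 3 and 4 of them were called higher in all 3 comparisons and 2, 3 and 0 lower, near or below the 14.2% and 12.8% of all genes.

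The knockdown libraries, which the rule did not use, gave the same comparison again with 2 THP6 libraries. There the rule found 796 higher (4.41%) and 839 lower genes (4.64%) among 18068 tested. Of the 752 higher genes 498 met the full rule again (66.2%), and of the 908 lower genes 634 (69.8%). On the same side in all 3 comparisons, whatever the test gave, were 664 and 848, and no gene met the rule in the opposite direction. Without SUP-T1 the numbers were 524 and 667. Of the 223 genes without a THP6 control count, 180 had none in the 2 THP6 knockdown libraries either, 215 had at most 3, and the highest total was 7. GSTP1, BEX3, ZNF260 and UBB were at 0 in both. Of the genes named here, 52 of 66 higher and 43 of 50 lower ones met the rule again. Those that did not were CCR8, HOXC9, ID3, IRF9, ITGAX, LCP2, OAS1, OAS2, PRF1, PSMB10, SH2D1A, TNF, TRGC2 and ZBTB16 among the higher and ADM, CD69, CDKN1A, DNMT3A, HSPA8, IFI35 and JAG1 among the lower, ITGAX because it was not tested there. With the SUP-T1 libraries labelled knockdown set against the THP6 controls, SH2D1A, ID3, IL2RB, CD69, IFI35, LSS and JAG1 no longer separated THP6.

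Set beside all 6 other lines of the series, 1449 of the 18291 genes had every THP6 control library above every other control library (7.92%), and 1146 had every one below (6.27%). Of the genes that separate THP6 from the T-ALL lines, 400 of the 752 higher (53.2%) and 361 of the 908 lower (39.8%) were among them. GIMAP4, GZMA, IGLL1, CEBPB and APOBEC3B were in the first group, UBB, CD8A, ACAA2 and IFNGR2 in the second. CD1A, RAG1 and GSTP1 were not, since other lines of the series had them as low.

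The edge of the rule is a matter of the chosen fold. Just inside it lay DNMT3A and TRBC2 with a smallest log2 fold change of −1.004 and −1.005, and OAS2, a gene of the interferon list, with 1.02, and just outside it lay OAS3 with 0.971. DNMT3A, a DNA methyltransferase, was at 43.5, 39.0 and 48.1 CPM in THP6 against 83.7 to 147, and its smallest log2 fold change was −0.95 without the first MOLT4 library and −0.93 without the second THP6 library. OAS2 was at 30.9 to 32.4 CPM against 14.1 to 17 in CCRF-CEM and less in the other lines, with 0.95 in place of 1.02 without the second CCRF-CEM library.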

How the data were processed

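The authors deposited 1 table of expected counts per gene for 36 libraries. Per the submitters' processing notes, reads were trimmed with cutadapt 2.3, aligned with STAR 2.7.8a and counted with RSEM 1.3.3 on GRCh38. Neither the annotation release nor the strand setting of this step is stated in those notes or in the labels. The values were rounded to whole numbers, which changed none. Of 60628 identifiers, 58516 (96.5%) are in GENCODE 29, the source of coordinates.

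The 11 control libraries of 4 lines, grouped by their titles, were fitted in edgeR 4.0.16 (TMM scaling, filterByExpr, quasi-likelihood F test, 1 mean per line), with Benjamini-Hochberg adjustment over 18291 genes. CPM values use TMM-scaled totals. The SE was read back from the test, as the size of the log2 fold change over the square root of the F statistic. It is approximate and can be too small where a line has few counts. A fold against a line without counts uses 3 counts over that line's libraries and covers counting error only. In simulated data 195 of 200 genes changed 4-fold were recovered (97.5%), with 0 false calls over 17233 genes. There the other lines shared 1 mean per gene, the dispersion was 0.01 for every gene, and genes with few counts were not among those changed. The real lines differ from one another, so these rates do not carry over to the counts reported here.

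Named were GATA3, per direction the 12 protein coding genes with the largest smallest fold change at 10 CPM or more, and separating members of fixed gene lists (up to 6 per list). Driver, Notch, receptor and marker genes were named at any result. Family members, zinc finger genes, HSPA8, MTAP, TRBV3-1 and genes at the edge of the rule were chosen after their values were seen. Some genes that the rule names are not reported here. The lines, lists and rule were chosen with earlier results of these data known. Alternatives were DESeq2 1.42.0, other scaling, filters, fold minimums, and fits without single libraries or SUP-T1.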

Additional observations from a re-analysis of the deposited data

How the results depend on the processing

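Without a minimum fold change 2534 genes were higher and 2226 lower in THP6, and with a log2 fold change of at least 2 the counts were 290 and 583. Tested against a log2 fold change of 1 (glmTreat), 5170, 3720 and 4506 genes were called against SUP-T1, CCRF-CEM and MOLT4, and 482 were higher and 677 lower than all 3. Against CCRF-CEM and MOLT4 alone 1457 genes were lower (1011 higher). With a mean of at least 1 CPM in THP6 or in each other line, an alternative chosen after seeing the data, as were the pairings of THP6 with 1 other line, 591 genes were lower (612 higher). DESeq2 gave 680 and 884, DESeq2 size factors 749 and 921, no filter 814 and 935, and all 36 libraries in 1 fit 817 and 892. Leaving out each library in turn gave 696 to 760 higher and 894 to 931 lower genes. No gene turned its direction in these fits. Of 15 correlations between same-numbered libraries of different lines, from −0.208 to 0.248, 5 were over 0.1. Differently numbered libraries were not compared, so these values cannot decide whether the replicate numbers pair the libraries. A fit with the replicate number as a block gave 732 and 896. With 2 or 3 libraries per line, the spread within MOLT4 rests on 1 pair. A THP6 level at 0 can hide a mean of up to 0.0383 CPM.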

Other observations

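Other gene groups stood out by position or type. On chromosome 15 between 30 and 35 megabases (Mb), 6 of 29 protein coding genes tested were higher in THP6, all of them GOLGA8 genes, copies of a golgin gene that share most of their sequence. GOLGA8N was at 54.0, 51.4 and 51.3 CPM in THP6 and 0.443 to 9.52 CPM in the other 8 libraries, and its single values are uncertain because reads can fit several copies. On chromosome 5 between 140 and 145 Mb, 10 of 61 genes were lower, protocadherins of the beta and gamma clusters among them. PCDHB14 was at 0, 0 and 0.0499 CPM in THP6 against 0.395 to 4.94. Long intergenic noncoding RNAs were higher at 65 of 843 genes (7.71%) and lower at 32 (3.8%), while protein coding genes were higher at 3.82% and lower at 5.25%. By chromosome, the share of protein coding genes lower in THP6 ran from 1.52% on chromosome 16 to 7.47% on the X chromosome and 10.6% on chromosome 19. These windows and types were chosen after their values were seen, and no test of their difference was made.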
